A study of Mus musculus with 21 samples.

Results

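Cells sorted as CD15 positive were compared with cells sorted as CD15 negative from mouse medulloblastomas that the titles call conventional Patched. The comparison used 12 of the 21 arrays of the series, chosen by those titles: 6 CD15 positive and 6 CD15 negative. Arrays 2 to 6 carry the same number in both groups, and 1 unnumbered array in each group was taken as the remaining pair, so that there were 6 pairs. The other 9 arrays, 4 CD15 positive and 5 CD15 negative, came from tumours named Math1-GFP and are used here for the shared estimate of spread and for 1 comparison. All samples were total RNA of primary cerebellar tumour cells. The labels name no strain, age, Patched allele or sorting gate, and do not say that each number was a separate animal. The p-values thus rest on how far these particular samples vary, and some of that variation may be technical.

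Patched (Ptch1) is the receptor that holds back Hedgehog signalling, and mice that lose its function develop medulloblastoma from cerebellar granule neuron precursors. These precursors divide in the outer layer of the young cerebellum while Hedgehog ligand is present, then leave the cell cycle, extend axons and migrate inward as they become granule neurons. CD15, also called Lewis X, is a fucose-bearing sugar chain on the surface of several kinds of progenitor cell. The question put to the arrays was which transcripts differ between tumour cells that carry this antigen and tumour cells that do not. Mitosis, S phase and neuronal structure genes were set aside in 3 lists, and most of what follows concerns genes outside them.

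Values are array signals put on the scale log2(signal + 32), and each difference is CD15 positive minus CD15 negative, as a log2 fold change with its standard error (SE). A gene is said to have risen or fallen where its adjusted p in limma, a linear model over all genes, was under 0.05 with Benjamini-Hochberg adjustment over 12367 genes. The main model had 4 group means over 21 arrays. A paired model used the 12 conventional arrays with the pair as a block, and its counts are given beside the others where they change a call or a count. In bulk samples, fewer cells of a kind and less RNA per cell cannot be told apart.

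The deposited values had been brought to a common scale. Without the highest and lowest 2% of probe sets, mean signal was 150.001 on each of the 21 arrays. With those extremes included, mean signal per array ran from 266.9 to 320.3 in the CD15 positive arrays (median 287.5). It ran from 256.5 to 290.9 in the CD15 negative arrays (median 262.4). The arrays thus differed in these means only through the extremes. Arrays 2 to 5 of both groups stood apart from the unnumbered arrays and number 6: the mean correlation of whole arrays was 0.958 within these sets and 0.928 between them. Alone, arrays 2 to 5 gave 667 called genes (5.39% of those tested), and the 4 other arrays gave 0, with 933 at an unadjusted p under 0.05. With genes ordered by signal and divided into 10 bins of equal size, the brightest bin had a median log2 fold change of 0.16 and the 7 dimmest had medians from -0.07 to -0.03. Quantile normalization brought the brightest bin to 0.03. Whether this brightness trend was biological was not tested, and lists of bright genes are given below with both values.

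**Figure D1:**
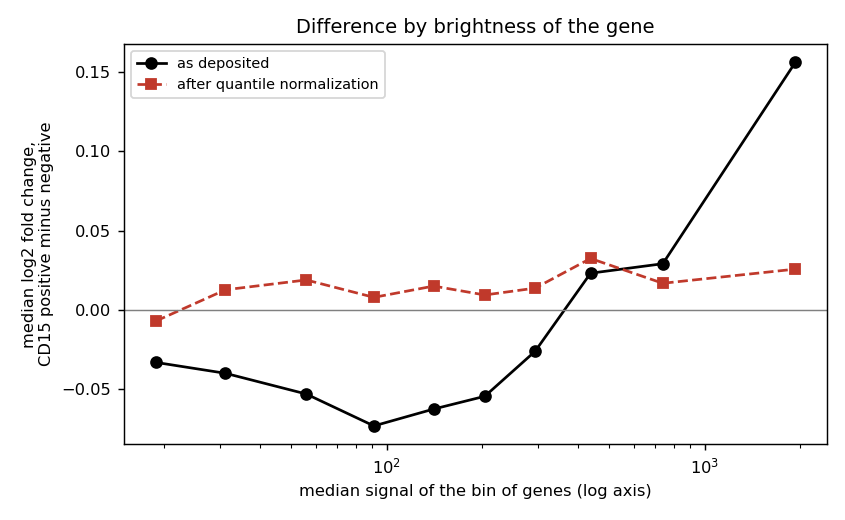
Median log2 fold change (CD15 positive minus negative) of 10 equal bins of the 12367 genes, ordered by signal, against the median signal of the bin on a log axis. Black circles are the deposited values and red squares the values after quantile normalization; the brightest bin lies at 0.16 and 0.03 respectively.

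Both fractions carried the transcripts of the granule neuron lineage. Zic1, a zinc finger factor of granule cells, had signals of 6626 to 8737 (median 8218) in CD15 positive and 7558 to 14625 (median 8396) in CD15 negative arrays. Atoh1, the factor that defines granule precursors, ran from 573 to 1532 (median 1005) and from 343 to 1135 (median 916). The groups overlapped for both genes. Atoh1 differed by 0.38 ± 0.33 (SE, limma adjusted p = 0.57) and was higher in 6 of 6 pairs (paired model adjusted p = 0.086). Zic1 did not pass in the main limma model, and after quantile normalization it differed by -0.42 (adjusted p = 0.033). Markers of some other cells were present as well. The summed signal of 18 microglial markers was 1785 to 29692 (median 6039) in CD15 positive and 596 to 9504 (median 3998) in CD15 negative arrays, and the CD15 positive array had the larger sum in 6 of 6 pairs. The sums were close in pair 5 (9633.5 against 9504) and in the unnumbered pair (2287 against 2063). Summed signals of 15 mural and fibroblast markers were 436 to 2649 (median 946) against 387 to 5625 (median 1471), and the sum was higher in CD15 positive cells in 1 pair. All 4 red cell markers lay under the filter on dim probe sets in the median array, as did 9 of 10 lymphocyte markers and 7 of 11 neutrophil markers. The summed signal of the 11 neutrophil markers was 109.5 to 554.5 (median 122) in CD15 positive and 84.1 to 1691 (median 232) in CD15 negative arrays. That sum was higher in CD15 positive cells in 1 pair.

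Expression differed widely between the fractions, and decreases outnumbered increases. In limma 1006 genes passed, 8.13% of those tested; 377 were higher (3.05%) and 629 lower (5.09%) in CD15 positive cells. With the pairs as a block 2564 genes passed (20.7%), 1093 higher (8.84%) and 1471 lower (11.9%). Both models called 1000 genes in common. None of the 1006 had the opposite sign in the paired model, which was fixed because both models give the same fold changes. The direction was the same in 6 of 6 pairs for 948 of the 1006, while 25.1% of all genes tested had 1 direction in 6 of 6 pairs. Groups did not overlap for 439 of the 1006, against 4.41% of all genes. Pair directions and overlap come from the arrays that gave the calls, so they describe the called genes and are not separate support. Outside the 3 lists set aside, 291 genes rose and 585 fell. Just 1 of these increases and 96 of these decreases were at least 2-fold. Over all genes tested the median log2 fold change was -0.02.

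Leaving out CD15 negative array 5 reduced the called genes to 606. Pairs 2 and 4 had the largest differences in microglial signal, and without them 202 genes passed in the unpaired model (51 higher, 151 lower, 1773 at an unadjusted p under 0.05). The paired model of the same 8 arrays called 1009 genes, 357 higher and 652 lower.

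The lists set aside are given for reference. Of 84 measured mitosis genes 68 rose and 0 fell, with a median of 0.74, and of 39 S phase genes 18 rose and 0 fell, with a median of 0.45. Ube2c, an enzyme of mitotic protein destruction, rose by 1.16 ± 0.18 (SE, limma adjusted p = 0.00075). Among 75 neuronal structure genes 44 fell and 0 rose, with a median of -0.72; the adhesion molecule L1cam fell by 2.22 on the log2 scale (SE 0.29, adjusted p = 0.00014). These lists were drawn up with earlier results of these data known, so their directions are descriptive.

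Promoters of the 3 largest increases outside those lists are shown. They were picked by size of increase, and all 3 hold a short sequence, the CCAAT box. Each window runs from 250 bases before to 50 after the gene start in RefSeq (GRCm38.p6), read in the direction of the gene. Capitals mark the CCAAT box, the cell cycle homology region TTTGAA and the E2F-like element TTGGCGC, on either strand.
Phgdh, chr3:98339920-98340219, minus strand: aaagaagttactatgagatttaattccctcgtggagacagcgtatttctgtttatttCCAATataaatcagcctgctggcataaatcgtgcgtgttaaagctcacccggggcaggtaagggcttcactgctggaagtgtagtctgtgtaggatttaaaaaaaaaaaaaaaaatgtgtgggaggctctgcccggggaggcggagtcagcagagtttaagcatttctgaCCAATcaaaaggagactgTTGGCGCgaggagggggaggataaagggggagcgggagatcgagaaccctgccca
Kpna2, chr11:106999476-106999775, minus strand: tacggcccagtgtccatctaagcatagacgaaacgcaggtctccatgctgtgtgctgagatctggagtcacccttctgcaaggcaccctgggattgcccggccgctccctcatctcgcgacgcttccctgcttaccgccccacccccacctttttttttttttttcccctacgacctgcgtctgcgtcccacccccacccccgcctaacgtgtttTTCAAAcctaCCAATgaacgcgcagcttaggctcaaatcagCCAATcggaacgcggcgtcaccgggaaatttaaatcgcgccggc
Nde1, chr16:14163025-14163324, plus strand: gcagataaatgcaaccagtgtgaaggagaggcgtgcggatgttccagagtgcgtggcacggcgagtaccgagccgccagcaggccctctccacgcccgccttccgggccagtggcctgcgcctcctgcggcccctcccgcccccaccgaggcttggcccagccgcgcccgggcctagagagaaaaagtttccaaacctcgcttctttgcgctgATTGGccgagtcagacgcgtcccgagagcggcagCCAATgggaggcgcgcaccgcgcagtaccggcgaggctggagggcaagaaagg
Phgdh holds CCAAT beginning 193 and 23 bases before the start and TTGGCGC beginning 5 bases before it. In Kpna2 a CCAAT begins 25 bases before the start and a TTTGAA, on the opposite strand, 35 bases before it; another CCAAT lies just after the start. Nde1 holds CCAAT 3 bases before the start and, on the opposite strand, 37 bases before it.

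The same letters were counted in all windows of this length whose gene had 1 promoter in the table (7921 of the genes tested). CCAAT was in 39.2% of them, in 51.6% of 215 promoters of genes that rose outside the set-aside lists, and in 36.4% of 335 promoters of genes that fell outside them. TTTGAA was in 11.5%, 20.5% and 7.46%, and TTGGCGC in 4.86%, 10.2% and 3.28%. Among 62 promoters of mitosis and S phase genes that rose, CCAAT was in 69.4% and TTTGAA in 54.8%. The E-boxes CACGTG and CAGCTG were in 9.77% and 9.3% of the promoters of increased genes and in 10.3% and 14.8% of all. Both strands were searched, and TTGGCGC read backwards can share bases with CCAAT. A match is a string of letters and not a binding site. The 300 bases of Aplp1, Sphkap and Mia, which fell, held none of these 5 strings. These genes were picked by size of decrease among genes with 1 promoter in the table. Myt1l, Pnoc and Apc2, which fell more than Mia, are therefore not among them. So few genes show nothing about the share of promoters with a string.

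The 3 largest increases outside the set-aside lists were those of Phgdh, Kpna2 and Nde1. Phgdh, the first enzyme of serine synthesis from glucose, had signals of 1277 to 2600 (median 2165) in CD15 positive and 575 to 1270 (median 985) in CD15 negative arrays. All 6 positive arrays lay above all 6 negative arrays, and the increase was 1.06 ± 0.24 (SE, adjusted p = 0.0091). The mean of its probe sets did not pass. Kpna2, an importin alpha that carries cargo into the nucleus, ran from 3244 to 5673 (median 4264) against 1601 to 2896 (median 2071). It rose by 0.97 ± 0.16 (adjusted p = 0.0011) and, again, the groups did not overlap. Nde1, a dynein partner at the centrosome whose loss makes the brain small, ran from 499 to 674 (median 555) against 206 to 370 (median 313). Its increase of 0.90 ± 0.14 (adjusted p = 0.00067) lay between 0.50 and 1.35 in the 6 pairs.

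Several smaller increases belong to genes that work beside mitosis but were not in the mitosis list. Cenpw, a centromere protein, ran from 491 to 650 (median 586) against 268 to 397 (median 312) and rose by 0.78 ± 0.12 (adjusted p = 0.00059). Oip5, which helps to load centromeric histone, ran from 165 to 272 (median 169) against 78.8 to 139 (median 94.8), with a rise of 0.76 ± 0.17 (adjusted p = 0.0076). Neither gene's groups overlapped. Fam83d, a spindle protein, rose by 0.78 ± 0.16 (adjusted p = 0.0049), the cyclin-dependent kinase phosphatase Cdkn3 by 0.74 ± 0.18 (adjusted p = 0.012) and the tubulin Tubb4b by 0.75 ± 0.18 (adjusted p = 0.012). Tubb4b did not pass with the mean of its probe sets. Rdm1, a DNA repair protein related to Rad52, ran from 237 to 359 (median 256) against 97.5 to 194 (median 143) and rose by 0.80 ± 0.20 (adjusted p = 0.014).

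Suclg2, a subunit of the mitochondrial succinyl-CoA ligase, ran from 466.3 to 853 (median 772) in CD15 positive and 189 to 619 (median 415) in CD15 negative arrays. It rose by 0.80 ± 0.21 (adjusted p = 0.022), with a difference of 0.44 to 1.29 in the pairs, and lost the call in 4 of the 12 fits that each left out 1 conventional array (adjusted p at most 0.058, without CD15 negative array 5). Dnph1, an enzyme that breaks down damaged nucleotides, rose by 0.77 ± 0.21 (adjusted p = 0.027) and lost the call in 6 of those fits (up to 0.078, without CD15 negative array 5). The glycogen primer Gyg rose by 0.75 ± 0.22 (adjusted p = 0.037) and lost the call in 8 of them (up to 0.099, without CD15 positive array 4). In the paired model adjusted p was 0.0021 for Suclg2, 0.00063 for Dnph1 and 0.0057 for Gyg. Groups overlapped for all 3 of these genes. Each was higher in 6 of 6 pairs, which the choice of the largest changes required.

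**Figure D2:**
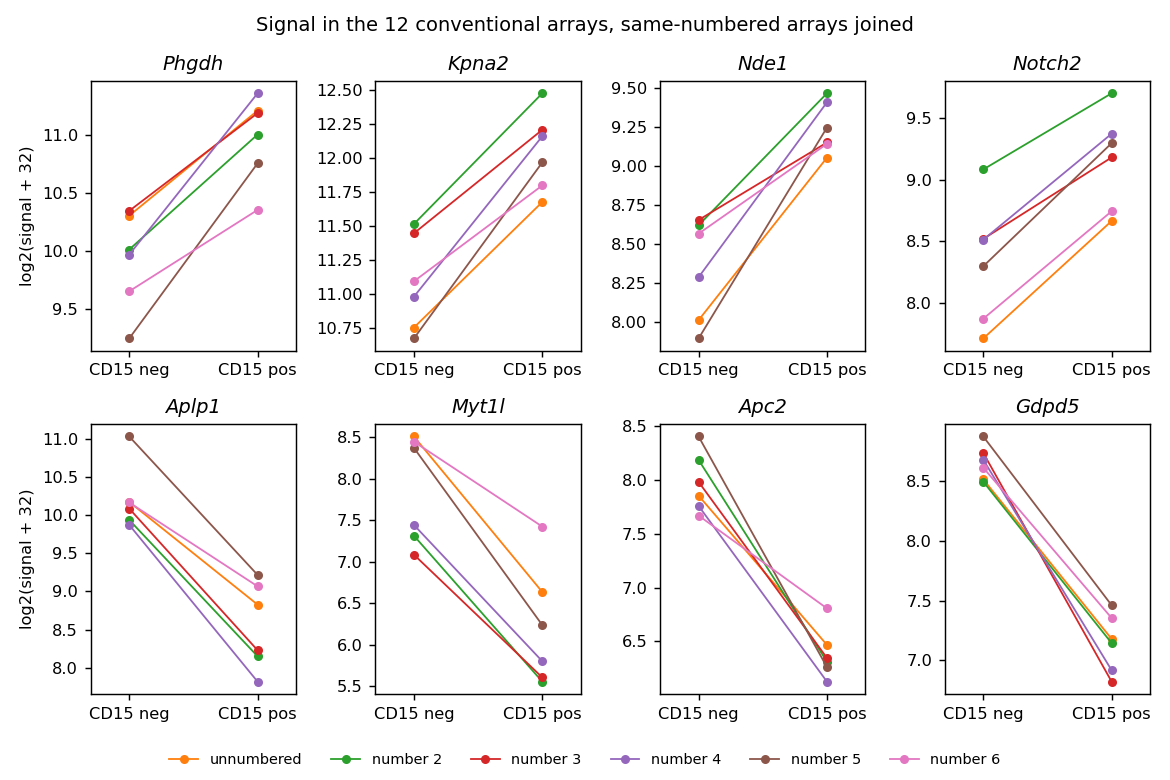
Signal of 4 genes that rose (top row) and 4 that fell (bottom row) as log2(signal + 32) in the 12 conventional arrays, with a line and colour for each pair. Every line rises in the top row and falls in the bottom row, which the choice of genes required. Groups overlap for Notch2 and Myt1l.

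Counts for this and the later lists stand against shares over all genes of 3.05% higher and 5.09% lower. In the paired model those shares were 8.84% and 11.9%. Unpaired counts for Notch, BMP and TGF-beta, mitochondrial ribosome, proteasome and p53 target genes lie near those shares. Genes that supply building blocks for DNA and protein had medians above that of all genes. Serine and one-carbon metabolism makes serine and glycine and passes single carbons to purines and thymidine; of 23 measured genes 4 rose and 0 fell (paired model 9 and 0; 2 and 0 after quantile normalization), with a median of 0.24. Besides Phgdh these were Shmt1, which moves a carbon from serine to folate (0.56 ± 0.14, adjusted p = 0.014), Ahcy, which clears the by-product of methylation (0.56 ± 0.17, adjusted p = 0.045), and Gcsh of the glycine cleavage system (0.37 ± 0.09, adjusted p = 0.017). Ahcy lost the call in 9 of the 12 fits without 1 array and Gcsh in 1; both were weakest without CD15 negative array 5 (adjusted p = 0.12 and 0.051), and neither passed after quantile normalization (0.068 and 0.061). Paired model adjusted p was 0.0041 for Ahcy and 0.016 for Gcsh. The list median was above 0 in 6 of 6 pairs, from 0.09 to 0.43.

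In nucleotide synthesis, 6 of 24 genes rose and 0 fell (paired model 11 and 0; 3 and 0 after quantile normalization), with a median of 0.30. Prps2, which makes the activated ribose from which nucleotides are built, ran from 497 to 619 (median 565) against 315 to 471 (median 372). It rose by 0.52 ± 0.11 (adjusted p = 0.0064) with no overlap between groups. Gart and Paics, enzymes of successive stretches of purine synthesis, rose by 0.41 ± 0.10 (adjusted p = 0.014) and 0.40 ± 0.10 (adjusted p = 0.016). Paics did not pass after quantile normalization (adjusted p = 0.16), nor Gart with the mean of its probe sets. In the Math1-GFP tumours the same 2 genes differed by 0.08 ± 0.12 and 0.07 ± 0.12, which is not a called difference between the tumour types (unadjusted p = 0.044 and 0.042 for the interaction).

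Other metabolic lists were measured as well. Of 20 glycolysis genes 0 rose and 1 fell (paired model 7 and 2), with a median of 0.06; of 19 cholesterol synthesis genes none passed, with a median of 0.02 (paired model 3 higher and 1 lower). Among 46 respiratory chain and ATP synthase genes 4 rose and 0 fell (paired model 10 and 0), with a median of 0.21. Atp5g2, a subunit of the ATP synthase ring, ran from 4689 to 6781 (median 5418) against 3386 to 4126 (median 3713) and rose by 0.54 ± 0.10 (adjusted p = 0.0031). Respiratory chain genes are bright: 42 of the 46 lie in the brightest of the 10 bins. After quantile normalization their median was 0.07 and 1 gene passed.

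Lists for handling RNA and protein also had medians above that of all genes. Of 45 splicing genes 11 rose and 0 fell (paired model 20 and 0), with a median of 0.26 that lay between 0.18 and 0.32 in the pairs. U2af1, which recognises the end of the intron, ran from 2849 to 3481 (median 3236) against 1715 to 2957 (median 2151) and rose by 0.53 ± 0.12 (adjusted p = 0.0071). Snrpb, a core protein of the splicing ribonucleoproteins, rose by 0.44 ± 0.09 (adjusted p = 0.0045), from 2327 to 3138 (median 2576) in CD15 negative to 3291 to 4109 (median 3440) in CD15 positive arrays. Hnrnpd and Snrpd3 rose by 0.37 ± 0.08 (adjusted p = 0.0088) and 0.44 ± 0.10 (adjusted p = 0.01). For each of these 2 genes, 2 of 3 probe sets pointed the other way. After quantile normalization 3 splicing genes passed and the median was 0.10.

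Nuclear pore and transport genes gave 7 increases of 53 and no decrease (paired model 14 and 0), with a median of 0.21, and 8 increases after quantile normalization. Nup37, a scaffold protein of the pore, ran from 712 to 995 (median 765) against 350 to 589 (median 494) and rose by 0.69 ± 0.15 (adjusted p = 0.0083). Ranbp1 and Rangap1, which help Ran, the switch of nuclear transport, to hydrolyse its GTP in the cytoplasm, rose by 0.56 ± 0.11 (adjusted p = 0.0034) and 0.42 ± 0.10 (adjusted p = 0.012). None of these 3 genes had overlapping groups.

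Of 32 ribosome biogenesis genes 5 rose and 0 fell (paired model 12 and 0; 2 and 0 after quantile normalization; median 0.25), and of 37 mitochondrial ribosome genes 1 rose (paired model 13; median 0.24). The 1 was Mrpl12, at 1478 to 2006 (median 1744) against 1123 to 1472 (median 1267), which rose by 0.44 ± 0.11 (adjusted p = 0.012). Npm1, the nucleolar chaperone of ribosome assembly, rose by 0.51 ± 0.14 (adjusted p = 0.027); it did not pass after quantile normalization (adjusted p = 0.26) or in 5 of the 12 fits without 1 array (up to 0.075, without CD15 negative array 5). In the proteasome 1 of 32 genes rose (paired model 4), with a median of 0.23 that became 0.11, with 0 genes passing, after quantile normalization. No gene of 19 tRNA synthetases passed in either model, and their median was 0.13.

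Chromatin genes divided into 11 increases and 4 decreases of 59 (paired model 15 and 6), with a median of 0.08. After quantile normalization 5 rose and 5 fell. Hmgb2, a DNA-bending protein of dividing cells, ran from 4990 to 7119 (median 6377) against 3383 to 4570 (median 3647) and rose by 0.74 ± 0.11 (adjusted p = 0.00034). The histone chaperone Rbbp7 rose by 0.48 ± 0.10 (adjusted p = 0.0035), and did not pass after quantile normalization (adjusted p = 0.069). Decreases included Actl6b, the neuronal actin-related subunit of the BAF remodelling complex. Its signals were 32.4 to 90.1 (median 48.5) in CD15 positive and 93.1 to 272 (median 145) in CD15 negative arrays, a fall of 1.11 on the log2 scale (SE 0.18, adjusted p = 0.00076). Kdm5b, a histone demethylase, ran from 121 to 194 (median 168) against 278 to 513 (median 334) and fell by 0.98 (SE 0.13, adjusted p = 0.00015). The groups did not overlap for any of these 4 genes.

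Among 43 DNA repair and checkpoint genes 6 rose and 0 fell (paired model 20 and 0), with a median of 0.33 that was above 0 in 6 of 6 pairs, from 0.18 to 0.50. Tipin, a fork protection protein, ran from 2324 to 2901 (median 2528) against 1455 to 2123 (median 1665) and rose by 0.56 ± 0.11 (adjusted p = 0.0025). The checkpoint kinase Chek2 rose by 0.59 ± 0.14 (adjusted p = 0.012), and H2ax, the histone that marks broken DNA, by 0.71 ± 0.15 (adjusted p = 0.0063). After quantile normalization 9 genes of this list passed.

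Regulators of the G1 phase, which decides whether a cell enters another cycle, gave 4 increases and 1 decrease of 39 (paired model 10 and 2), with a median of 0.12. Cyclin D1 (Ccnd1), a Hedgehog-responsive partner of the G1 kinases, ran from 3492 to 4175 (median 3807) against 2102 to 3432 (median 2837) without overlap. It rose by 0.46 ± 0.12 (adjusted p = 0.021); it did not pass after quantile normalization (adjusted p = 0.16) or in 2 of the 12 fits without 1 array (up to 0.063, without CD15 negative array 5). Mxd1, an antagonist of Myc that accompanies differentiation, fell by 0.55 (SE 0.13, adjusted p = 0.012) from 61.8 to 142 (median 91.3) in CD15 negative to 44.5 to 80.8 (median 51) in CD15 positive arrays. It did not pass with the mean of its probe sets or in the paired model of the 5 numbered pairs (adjusted p = 0.054). Mxd3, of the same family, went the other way and rose by 0.66 ± 0.19 (adjusted p = 0.036 unpaired, 0.0019 paired).

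Of 32 Hedgehog pathway genes 3 rose and 1 fell (paired model 7 and 1; 1 and 1 after quantile normalization), with a median of 0.10; over all genes 3.05% rose and 5.09% fell. Ptch1 ran from 1114 to 2800 (median 1481) against 668 to 2268 (median 1223), with overlap and a difference of 0.46 ± 0.39 (adjusted p = 0.55; 0.043 in the paired model). Its target factor Gli1 ran from 513 to 822 (median 578) against 274 to 568.1 (median 309) and rose by 0.70 ± 0.21 (adjusted p = 0.038). Gli1 was higher in 6 of 6 pairs, by 0.11 to 1.09 (paired model adjusted p = 0.0051). In the unpaired model it did not pass in 9 of the 12 fits without 1 array (adjusted p at most 0.096, without CD15 negative array 5). Prkacb, a catalytic subunit of the kinase that restrains Gli factors, fell by 0.51 (SE 0.12, adjusted p = 0.011).

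Notch genes gave 1 increase and 1 decrease of 28 (paired model 3 and 1), with a median of -0.09. The receptor Notch2, which is active in granule precursors, ran from 374 to 799 (median 572) against 178 to 510 (median 308) and rose by 0.83 ± 0.23 (adjusted p = 0.03). It was higher in each pair, which the choice of the largest changes required, by 0.62 to 1.00. Notch2 had adjusted p = 0.00036 in the paired model. In the unpaired model it did not pass in 7 of the 12 fits without 1 array (up to 0.077, without CD15 positive array 2). Dtx3, a member of the Deltex ubiquitin ligase family, fell by 0.57 (SE 0.10, adjusted p = 0.002), with signals of 212 to 270 (median 255) against 323 to 474 (median 372).

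Of 29 Wnt genes 4 fell and 0 rose (paired model 4 and 3), although the median of 0.05 was above that of all genes. Porcn, which attaches the lipid that Wnt ligands need for secretion, ran from 86.2 to 163 (median 115) in CD15 positive and 280 to 393 (median 303) in CD15 negative arrays. It fell by 1.23 (SE 0.15, adjusted p = 8.6e-05), and each positive array lay below each negative array. Apc, the scaffold of the complex that destroys beta-catenin and a microtubule-binding protein of axons, ran from 979 to 1265 (median 1094) against 1552 to 2329 (median 1999) and fell by 0.82 (SE 0.14, adjusted p = 0.0013). The receptor Fzd3, which steers axons, fell by 0.66 (SE 0.14, adjusted p = 0.0059), with 1 of its 4 probe sets opposed and no call from their mean. The signal transducer Dvl1 fell by 0.40 (SE 0.09, adjusted p = 0.012). BMP and TGF-beta genes gave 1 decrease of 30 (paired model 3 higher and 1 lower), the activin receptor Acvr1b at -0.60 ± 0.14 (adjusted p = 0.012).

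Among receptor kinase and MAP kinase genes 7 of 45 fell and 0 rose (paired model 14 and 1), with a median of -0.20. The 4 of lowest p were 2 kinases of the JNK route and 2 phosphatases of MAP kinases. Mapk10, the neuronal JNK, ran from 132 to 238 (median 150) against 340 to 989 (median 540) and fell by 1.503 (SE 0.24, adjusted p = 0.00067). The phosphatase Dusp8 fell by 0.92 (SE 0.15, adjusted p = 0.00095), the phosphatase Dusp26 by 1.04 (SE 0.23, adjusted p = 0.0071) and Map3k12, the kinase of the axon injury response, by 0.89 (SE 0.19, adjusted p = 0.0056). All 4 had groups without overlap; Map3k12 did not pass with the mean of its probe sets.

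**Figure D3:**
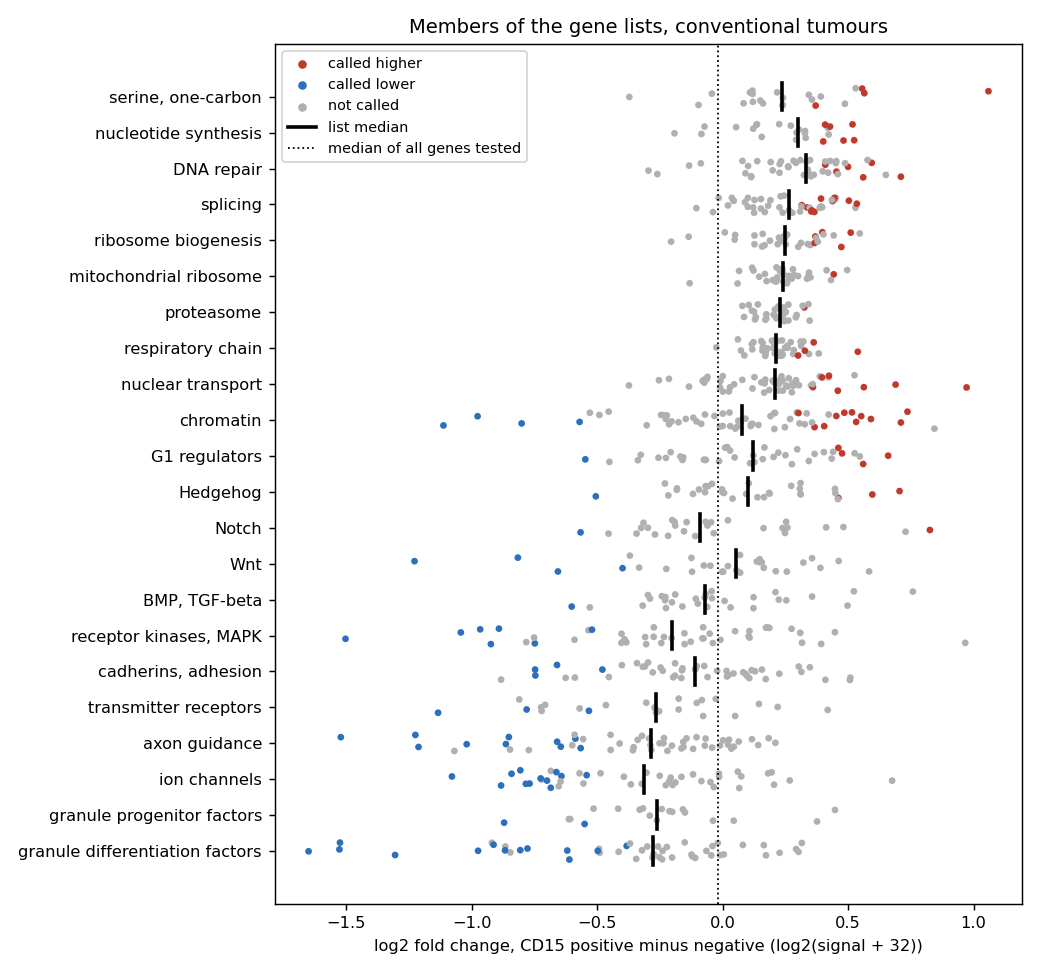
Log2 fold change (CD15 positive minus negative) of each measured member of 22 gene lists, with red points for genes called higher, blue for genes called lower and grey for the rest in limma. Thick bars are list medians and the dotted line is the median of all genes (-0.02); the lists of synthesis, splicing and repair lie to its right, and those of channels, guidance and differentiation factors to its left.

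The largest decreases outside the set-aside lists were larger than the largest increases there. Aplp1, a relative of the amyloid precursor protein at neuronal contacts, ran from 193 to 562 (median 345) in CD15 positive and 905 to 2058 (median 1085) in CD15 negative arrays. It fell by 1.66 (SE 0.26, adjusted p = 0.00068). Myt1l, a zinc finger factor that holds neurons to their identity, ran from 15.1 to 140 (median 33.6) against 104 to 332 (median 220) and fell by 1.65 (SE 0.28, adjusted p = 0.0013). Lowest in p among the 15 largest decreases outside those lists was Apc2, the neuronal relative of Apc, at 37.9 to 79.9 (median 48.4) against 171 to 306 (median 210), and fell by 1.59 (SE 0.14, adjusted p = 1.9e-06). The groups overlapped for Myt1l and not for Aplp1 or Apc2. All 3 were lower in 6 of 6 pairs, which the choice of the largest changes required.

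Gdpd5, a phosphodiesterase that promotes the exit of neural progenitors from the cycle, ran from 80.9 to 144 (median 111) against 329 to 438 (median 369). It fell by 1.51 (SE 0.15, adjusted p = 5.1e-06), with differences from -1.92 to -1.26 in the pairs. Plppr3, a lipid phosphatase-related protein of growing axons, ran from 30.1 to 112 (median 54.9) against 168 to 388 (median 218) and fell by 1.53 (SE 0.18, adjusted p = 6.4e-05). Srgap3, which shapes the neuronal membrane downstream of Slit and Robo, ran from 30.2 to 123 (median 73.5) against 215 to 335 (median 257) and fell by 1.52 (SE 0.21, adjusted p = 0.0002). For Srgap3 1 of 2 probe sets pointed the other way. All 3 had groups without overlap.

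Others of the 15 largest decreases are described next. Pnoc, the precursor of the peptide nociceptin, ran from 9.33 to 45.8 (median 26.2) against 55.1 to 255 (median 180) and fell by 1.60 (SE 0.35, adjusted p = 0.0074). The anchoring protein Sphkap fell by 1.62 (SE 0.30, adjusted p = 0.0023). The synaptic vesicle protein Synpr fell by 1.53 (SE 0.28, adjusted p = 0.0023) and the G protein subunit Gng3 fell by 1.52 (SE 0.38, adjusted p = 0.016). Those 3 had overlapping groups. Mia, a small secreted protein first found in melanoma, ran from 35.5 to 113 (median 96.6) against 160 to 470 (median 279) and fell by 1.55 (SE 0.27, adjusted p = 0.0013). Wscd2 fell by 1.53 (SE 0.23, adjusted p = 0.00045), and Klhl35 by 1.51 (SE 0.41, adjusted p = 0.026), the latter not passing in 5 of the 12 fits without 1 array (adjusted p at most 0.073, without CD15 negative array 5). Klhl35 had adjusted p = 0.00037 in the paired model.

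Of 48 transcription factors of granule cell differentiation 13 fell and 0 rose (paired model 23 and 0), with a median of -0.28. Within the pairs the list median lay between -0.39 and -0.20. Nhlh1, a basic helix-loop-helix factor of newly formed neurons, ran from 296 to 708 (median 440) against 1032 to 2955 (median 1125) and fell by 1.52 (SE 0.25, adjusted p = 0.00087). St18, a relative of Myt1l, ran from 198 to 911 (median 340) against 879 to 1610 (median 1159) and fell by 1.53 (SE 0.30, adjusted p = 0.0034). Zbtb18, a repressor needed for neuronal maturation, was bright in both fractions, at 2852 to 3560 (median 3014) against 4010 to 4886 (median 4409), and fell by 0.50 (SE 0.10, adjusted p = 0.0045). Nhlh1 and Zbtb18 did not overlap between groups, and St18 did.

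Of 19 factors of granule precursors 2 fell and 0 rose (paired model 8 and 1), with a median of -0.26, so that this list did not rise with the mitosis genes. Sox4, active in precursors and early neurons, ran from 3493 to 5892 (median 4499) against 4513 to 7675 (median 7126) and fell by 0.55 (SE 0.13, adjusted p = 0.014). Lhx1 fell by 0.87 (SE 0.25, adjusted p = 0.036) and did not pass in 8 of the 12 fits without 1 array (adjusted p at most 0.096, without CD15 negative array 5). Its paired model adjusted p was 0.00075. Of 9 mature granule neuron genes 2 fell (paired model 5). One was Neurod1, a differentiation factor of granule neurons, at 1795 to 4870 (median 2641) against 4235 to 9162 (median 4944), with a fall of 1.08 (SE 0.26, adjusted p = 0.012).

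Excitability and guidance genes were lower without exception among those called in the unpaired model. Of 44 ion channel genes 12 fell and 0 rose (paired model 19 and 1), with a median of -0.31 that was below 0 in 6 of 6 pairs. Kcnk2, a background potassium channel, ran from 7.15 to 32.2 (median 24.2) against 56.1 to 147 (median 75) and fell by 1.08 (SE 0.20, adjusted p = 0.0026). Cacna1b, the pore of the N-type calcium channel, ran from 86.9 to 162 (median 103) against 161 to 356 (median 201) and fell by 0.84 (SE 0.15, adjusted p = 0.0019). The sodium channel subunit Scn3b fell by 0.78 (SE 0.17, adjusted p = 0.0059), and the L-type calcium channel pore Cacna1d by 0.88 (SE 0.21, adjusted p = 0.011), though not with the mean of its probe sets. Cacna1b groups overlapped and the others' did not.

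Of 24 transmitter receptor genes 3 fell and 0 rose (paired model 9 and 1), with a median of -0.27. Gabbr1, a subunit of the metabotropic GABA receptor, ran from 146 to 275 (median 207) against 341 to 620 (median 517) and fell by 1.13 (SE 0.18, adjusted p = 0.00076). The glutamate receptor subunit Gria4 fell by 0.78 (SE 0.22, adjusted p = 0.029) and the nicotinic receptor subunit Chrnb2 by 0.53 (SE 0.15, adjusted p = 0.035). Gria4 did not pass in 4 of the 12 fits without 1 array (adjusted p at most 0.076, without CD15 positive array 4), nor Chrnb2 in 5 (up to 0.096, without CD15 negative array 5). After quantile normalization 1 receptor gene passed.

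Of 51 axon guidance genes 10 fell and 0 rose (paired model 19 and 0), with a median of -0.28. Besides Srgap3, these included the semaphorins Sema4g and Sema6a and Srgap2. Sema4g ran from 61.9 to 127 (median 90.6) against 206 to 305 (median 252) and fell by 1.22 (SE 0.16, adjusted p = 0.00015). Sema6a, which guides the radial migration of granule cells, ran from 41.7 to 124 (median 65.7) against 131 to 320 (median 205) and fell by 1.21 (SE 0.21, adjusted p = 0.0013), with 1 of 3 probe sets opposed and no call from their mean. Srgap2 fell by 0.57 (SE 0.11, adjusted p = 0.0023). All 3 had groups without overlap.

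Cadherin and adhesion genes gave 4 decreases of 47 (paired model 8 lower and 3 higher), with a median of -0.11. Over all genes 5.09% fell, and in the paired model 11.9% fell and 8.84% rose. Astn1, the astrotactin by which granule neurons hold to glial fibres as they migrate, ran from 99.9 to 169 (median 137) against 170 to 350 (median 238) and fell by 0.75 (SE 0.15, adjusted p = 0.0042). The protocadherin Pcdh8 fell by 0.75 (SE 0.20, adjusted p = 0.023) and the seven-pass cadherin Celsr2 by 0.48 (SE 0.12, adjusted p = 0.019). Pcdh8 did not pass in 2 of the 12 fits without 1 array (adjusted p at most 0.055, without CD15 positive array 5), nor Celsr2 in 1 (0.052, without CD15 negative array 5).

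Leaving out arrays changed both the counts of calls and some medians of these lists. Without CD15 negative array 5, 6 splicing, 5 nuclear transport, 4 repair, 3 nucleotide synthesis, 2 serine and one-carbon and 0 ribosome biogenesis genes rose. In the same fit 9 differentiation factors, 7 ion channel genes, 6 guidance genes and 6 receptor and MAP kinase genes fell. Without pairs 2 and 4 the unpaired model called 0 splicing, 1 nuclear transport, 1 repair and 1 nucleotide synthesis gene higher, and 4 differentiation factors, 3 channel and 4 guidance genes lower. The paired model of those 8 arrays called 2, 2, 9 and 3 higher and 13, 13 and 10 lower, in the same order. List medians without the 2 pairs were 0.25 for splicing, 0.34 for repair, -0.35 for channels and -0.30 for differentiation factors. Other medians moved by over 1.5 times: receptor and MAP kinase genes went from -0.20 to -0.09, transmitter receptors from -0.27 to -0.15 and cadherin and adhesion genes from -0.11 to -0.05. Without CD15 negative array 5 the serine and one-carbon median went from 0.24 to 0.14.

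**Figure D4:**
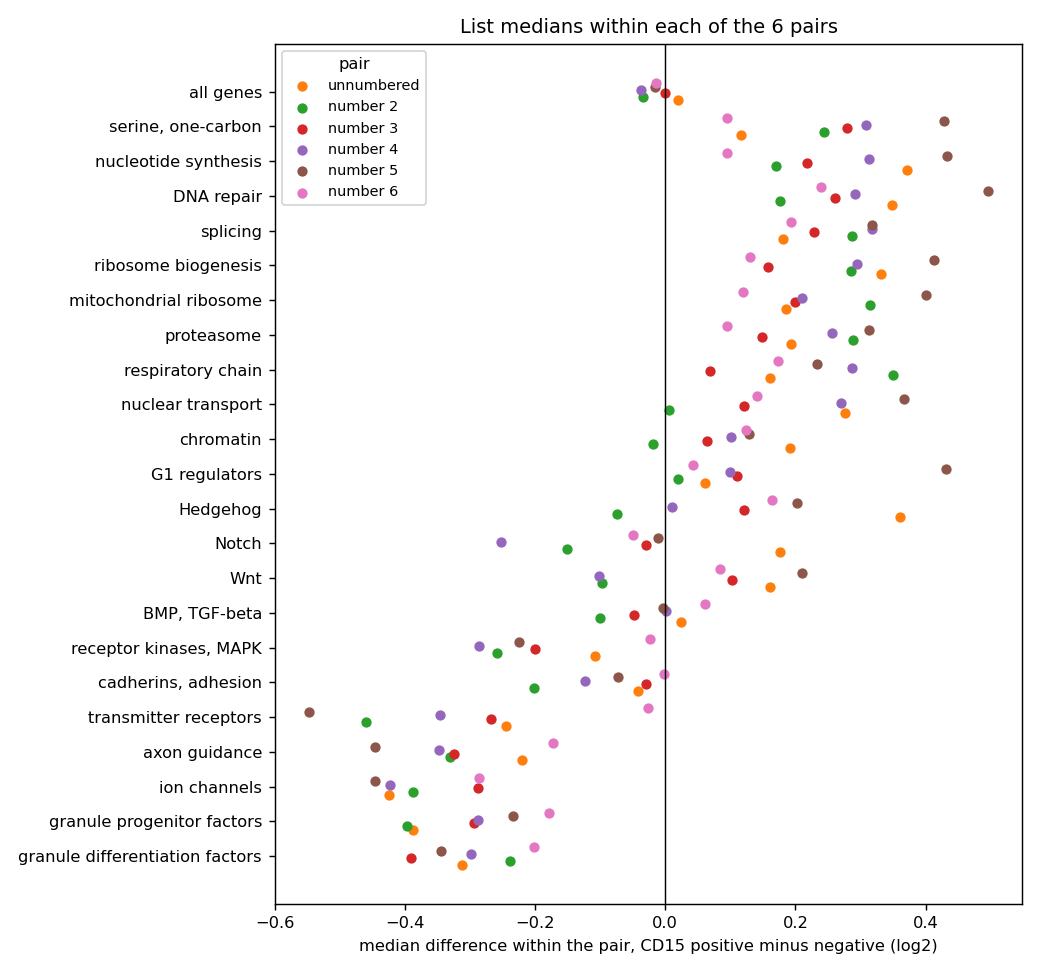
Median difference (CD15 positive minus negative, log2) within each of the 6 pairs, over all genes and over each of 22 gene lists, with a colour for each pair. The splicing, repair and nucleotide synthesis lists are above 0 in 6 pairs, and the channel, guidance and differentiation factor lists below 0 in 6 pairs.

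Genes for CD15 and related sugar chains had a median near that of all genes (-0.02). Of the 2 enzymes named here that make CD15, Fut9 was lower in CD15 positive cells in the paired model, and Fut4 was too dim to compare. Of 27 genes of the antigen and related sugar chains 0 rose and 1 fell (paired model 1 and 4), with a median of -0.05. Fut9, the fucosyltransferase that makes the antigen in brain, ran from 152 to 354 (median 230) in CD15 positive and 275 to 469 (median 312) in CD15 negative arrays. The difference was -0.44 ± 0.20 (adjusted p = 0.19) in the unpaired model, and in the paired model Fut9 was lower in the CD15 positive cells (adjusted p = 0.014). It was lower in 6 of 6 pairs, and the groups overlapped. Fut4, the other such enzyme, was under the filter on dim probe sets, at 3.05 to 20.9 on the 12 arrays. The sialyltransferase St8sia1, which makes the ganglioside GD3, fell by 0.78 (SE 0.22, adjusted p = 0.035) and did not pass in 9 of the 12 fits without 1 array (up to 0.083, without CD15 positive array 4).

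Stem cell and radial glia genes gave 0 increases and 1 decrease of 20 in the unpaired model, with a median of 0.22. The 1 was Msi1, an RNA-binding protein of progenitors, at 296 to 519 (median 377) against 401 to 662 (median 522); it fell by 0.44 (SE 0.13, adjusted p = 0.041) and did not pass in 9 of the 12 fits without 1 array (up to 0.11, without CD15 positive array 4). The paired model called 4 higher and 1 lower. Prom1 and Fabp7 are 2 of those, picked after their values were seen. Prom1, the CD133 antigen, ran from 248 to 671 (median 511) against 122 to 460 (median 292), with a difference of 0.75 ± 0.29 (adjusted p = 0.13 unpaired, 0.0018 paired). Fabp7, a fatty acid carrier of radial glia, ran from 96.8 to 1553 (median 309.8) against 45.5 to 510 (median 116), with a difference of 1.17 ± 0.69 (adjusted p = 0.34 unpaired, 0.0095 paired). Both were higher in 6 of 6 pairs and overlapped between groups.

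Lists of cell death and stress were read in the same way. None of 26 apoptosis genes passed (paired model 5 higher and 5 lower; median -0.01), and of 22 p53 targets 1 fell (paired model 1 higher and 3 lower; median -0.06). The 1 was the stress kinase Plk3, with a fall of 0.60 (SE 0.16, adjusted p = 0.027), which did not pass in 7 of the 12 fits without 1 array (up to 0.065, without CD15 positive array 2). Among 25 immediate early genes, whose transcription follows stimulation and cell handling, none passed (paired model 2 and 2; median -0.10). None of 19 interferon genes passed (paired model 1 higher; median 0.08), and of 32 heat shock and endoplasmic reticulum stress genes 1 rose (paired model 4 higher and 1 lower; median 0.21, or 0.06 after quantile normalization).

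Some markers of microglia, astrocytes and mural cells passed in the paired model, and none of them passed in the unpaired one. Over all genes the paired model called 8.84% higher and 11.9% lower. Of 16 measured microglial genes none passed, their median was 0.72, and 8 rose in the paired model. C1qa, the complement subunit made by microglia, ran from 119 to 2576 (median 405) against 37.9 to 479 (median 189). The difference was 1.37 ± 0.65 (adjusted p = 0.22 unpaired, 0.003 paired). Without pairs 2 and 4 the median of the microglial list was 0.38, while those of the mitosis and neuronal lists were 0.74 and -0.75. Pf4, a chemokine of platelets and of brain macrophages, was the 1 gene of this kind among the largest increases. It ran from 31.1 to 135 (median 57.9) against 12.5 to 44.1 (median 29), rose by 0.76 ± 0.21 (adjusted p = 0.03), and did not pass in 6 of the 12 fits without 1 array (up to 0.079, without CD15 positive array 4).

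Of 13 astrocyte genes none passed (paired model 6 higher and 2 lower), with a median of 0.39. Of 13 mural and fibroblast genes none passed, with a median of -0.52, and the paired model called 2 lower, near the share over all genes. Without pairs 2 and 4 the astrocyte median was 0.42 and the mural and fibroblast median -0.19. Rgs5, a pericyte marker, ran from 44.5 to 260 (median 90.0) against 69.5 to 638 (median 219), with a difference of -1.11 ± 0.42 (adjusted p = 0.12 unpaired, 0.012 paired). Of 9 oligodendrocyte genes none passed (paired model 2 and 2; median 0.00). No endothelial gene of 8 and no neutrophil gene of 6 passed in the unpaired model; of 4 Purkinje cell and interneuron genes 1 fell, Lhx1. The part of these other cells in the differences above was not tested.

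**Figure D5:**
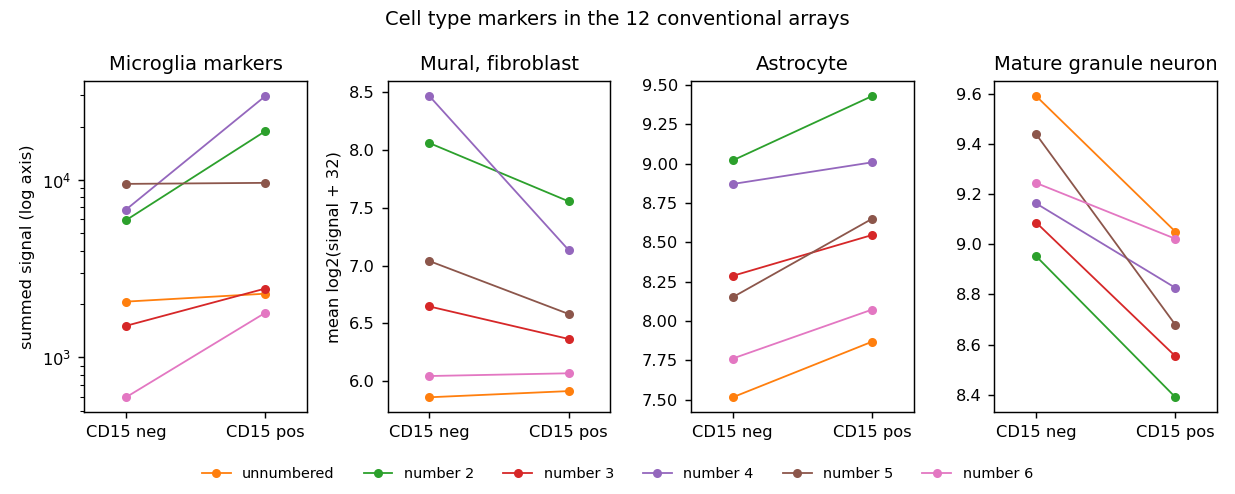
Left, summed signal of the microglial markers (log axis) in the 12 conventional arrays; the other panels show the mean log2(signal + 32) of mural and fibroblast, astrocyte and mature granule neuron genes. Lines join the 2 arrays of a pair; the microglial sum rises in 6 of 6 pairs, most in pairs 2 and 4.

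Differences between conventional and Math1-GFP tumours in the CD15 contrast were tested directly as an interaction. None of 12367 genes passed in limma (0%), with 279 at an unadjusted p under 0.05. For the CD15 difference of the Math1-GFP tumours, a contrast within the same model of 21 arrays, 5 genes passed (0.0404%), with 1073 at an unadjusted p under 0.05. In order of interaction p the lowest 5 were Vps13d, Srgap3, Apc2, Bbs1 and Mmp24. Srgap3 differed by -1.52 ± 0.21 in conventional and -0.40 ± 0.24 in Math1-GFP tumours, and Apc2 by -1.59 ± 0.14 and -0.82 ± 0.16 (unadjusted p = 0.0021 for both interactions). Mmp24, a membrane metalloproteinase of neurons, ran from 86.2 to 102 (median 96.2) against 226 to 474 (median 323) in the conventional arrays, a fall of 1.51 (SE 0.13, adjusted p = 1.9e-06). In Math1-GFP tumours it differed by -0.82 ± 0.15 (unadjusted p = 0.0028 for the interaction). Bbs1, of the ciliary cargo complex, differed by -0.44 ± 0.10 and 0.06 ± 0.11 (unadjusted p = 0.0026 for the interaction). Vps13d differed by -0.56 ± 0.15 and 0.29 ± 0.18 (unadjusted p = 0.0014 for the interaction). No adjusted p of these interactions was under the threshold.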

How the data were processed

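Each sample was 1 array of the Affymetrix Mouse Genome 430 2.0 type, with 45101 probe sets. The authors deposited an intensity per probe set, not log-transformed (0.0247 to 55079). The software and scaling method behind it are not given in the sources used here. The values themselves show a common scale, with a mean of 150.001 on every array after trimming 2% at each end. Control probe sets (64) and those with several symbols (932) or none listed (9211) were left out, as were probe sets whose mean log2 value lay below the 40th percentile (signal 15.5). Each gene was represented by its brightest probe set, giving 12367 genes. Of 34958 probe sets with 1 symbol, 34754 matched the RefSeq table (GRCm38.p6).

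On log2(signal + 32), a scale that understates changes of dim genes, limma 3.58.1 in R 4.3.3 fitted 4 group means to 21 arrays (17 residual degrees of freedom); p-values are two-sided from eBayes. The paired model used 12 arrays and 6 pairs (5 residual degrees of freedom). Pairing was checked on deviations from the group means: same-numbered arrays correlated at 0.58 to 0.76, other combinations at -0.56 to 0.48, and 6 of 6 CD15 positive arrays were closest to their own number. The labels do not say what the number marks. The 9 Math1-GFP samples are described as conventional in another label; titles were followed. The number of arrays limits the precision.

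Members and the 45 gene lists (1561 genes) were chosen with earlier results of these data known, and no list was tested. Named genes were the 15 largest called changes each way outside the mitosis, S phase and neuronal lists with 1 sign in 6 pairs, up to 3 each way within them, up to 4 called members of lowest p per other list, Ptch1, Gli1, Fut4, Fut9, Atoh1 and the 5 lowest interaction p-values; some are left out for length. The script was tested on simulated data. Alternatives were quantile normalization, other pseudocounts, filters and probe set rules, other fits, sets of arrays and pairings, and leaving out each array; the fits without pairs 2 and 4 were chosen after seeing the data.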

Additional observations from a re-analysis of the deposited data

Results flagged for a closer look

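Combinations of group with a named gene, or with the list score of a cell type, were tested by Dixon's criterion. In a group of 6 arrays, 12 of 196 had 1 array far from the other 5, which chance meets in about 5% of groups. All 12 were genes. CD15 negative array 5 accounted for 7 of them. On the log2(signal + 32) scale it was the highest of its group for Aplp1 (11.03), Chrnb2 (8.11), Dusp26 (8.09), Fut9 (8.97), Gria4 (9.54) and Nhlh1 (11.54), and the lowest for the glycine cleavage gene Gcsh (10.28). CD15 positive array 5 was the highest of its group for Lhx1 (10.64) and Synpr (8.53). The remaining 3 were Hmgb2, highest on the unnumbered CD15 negative array (12.17), Mxd1, highest on CD15 positive array 6 (6.82), and Sox4, lowest on CD15 negative array 6 (12.15). Each of these values is given as measured, with no test of its cause.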

How the results depend on the processing

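Against 1006 called genes, the paired model of 6 pairs called 2564 and that of the 5 numbered pairs 1917 (replicate block). Arrays 2 to 5 alone gave 667, the 4 other arrays 0 (933 at an unadjusted p under 0.05), and the unpaired fit without pairs 2 and 4 gave 202. Leaving out 1 conventional array gave 606 (without CD15 negative array 5) to 1047 (without CD15 positive array 6). Quantile normalization gave 807, a pseudocount of 1 gave 929 and a larger one 1106, no filter 938, a filter at the 60th percentile 1074, the mean of probe sets 926, every probe set 1372, the 12 arrays alone 754, numbered and Math1-GFP arrays 768, trend and robust estimation 1046, array weights 1193, and the array sets as a block 1337. The interaction stayed at 0 in every fit that held both tumour types. Mxd3, Hnrnpd and Snrpd3 were not followed through these fits. No other named gene changed sign in any fit. Of 89 named called genes, 69 passed without any 1 conventional array, 78 after quantile normalization, 76 with the mean of probe sets and 89 in the model of 6 pairs. Those lost after quantile normalization were Ahcy, Ccnd1, Chrnb2, Gcsh, Gria4, H2ax, Npm1, Paics, Plk3, Rbbp7 and Vps13d; those lost with the mean of probe sets were Cacna1d, Chrnb2, Fzd3, Gart, Lhx1, Map3k12, Msi1, Mxd1, Phgdh, Sema6a, St8sia1, Tubb4b and Vps13d. Among the 43 list medians, 58 of 1290 alternative values moved by over 1 SD between pairs. The causes were not tested. Dim probe sets limit what can be said: of 1237 genes in the dimmest of 10 equal bins 0 rose and 14 fell, against 137 and 50 in the brightest bin. Of 576 called genes with more than 1 probe set, 81 had at least 1 that pointed the other way.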
